A study of Mus musculus with 24 samples.

Results

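The genes described here are the 6 that form the Bmal1, Clock and REV-ERB/ROR loop of the circadian clock: Arntl (also named Bmal1), Clock, Npas2, Nr1d1, Nr1d2 and Rora. They were chosen by gene symbol, and all 6 were found among the 47643 Ensembl gene IDs counted. RNA of plantaris, a fast hindlimb muscle of wild type C57BL/6 mice, was counted per gene from reads at transcript 3′ ends. Of the 24 samples, 11 came from mice kept in normal air and 13 from mice that had 16 weeks of tobacco smoke. The age and sex of the mice, the hour of day at which muscles were taken and the interval since the last smoke exposure are not given in the sources used here. The labels do not say whether each sample is a separate animal, so p-values measure the spread between these samples.

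In this loop the proteins BMAL1 and CLOCK, or BMAL1 and the CLOCK paralog NPAS2, pair up and switch on genes that carry E-boxes in their control regions. Among those genes are Nr1d1 and Nr1d2, which encode the repressors REV-ERBα and REV-ERBβ. The REV-ERBs and the activator RORα, encoded by Rora, compete for a second element, the RORE, in Arntl, Clock, Npas2 and other genes. The result in most tissues, muscle included, is a daily rhythm in which Arntl and the REV-ERB genes peak at opposite times of day.

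Promoter sequence was read for the loop genes because the loop acts through these short elements. RefSeq promoter windows on GRCm38.p6, running from 250 bases before to 50 bases after an annotated start, were found for all 6 genes (9 windows). Both strands were searched for the RORE half-site AGGTCA, the pattern TAGGTNA (which overlaps that half-site), the E-box CACGTG, the related box CACGTT and the D-box pattern TTANGTAA. Arntl had TAGGTNA at 2 places, at positions −6 and 31 from its more downstream start, and the second of them also held AGGTCA. These stretches are shown with the match in capitals, from chr7:113207495-113207521 and chr7:113207531-113207557 (plus strand).
Arntl, first match: ggtcggaaagTAGGTTAgtggtgcgac
Arntl, second match: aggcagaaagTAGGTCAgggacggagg
Of 32851 windows of all genes, 8.3% held TAGGTNA and 16.3% held AGGTCA.

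The bases before the starts of both REV-ERB genes are shown because Nr1d2 is the gene of the loop that differed between groups and Nr1d1 is its paralog. Nr1d2 (chr14:18239128-18239327, minus strand) held AGGTCA at position −77, and Nr1d1 (chr11:98775378-98775577, minus strand) held AACGTG, which is CACGTT on the other strand, at position −28. Both positions are counted from the RefSeq start. The Nr1d2 stretch stops before the GENCODE start, which lies upstream of the RefSeq one, so its last base is not position −1. The capitals mark these matches.
Nr1d2: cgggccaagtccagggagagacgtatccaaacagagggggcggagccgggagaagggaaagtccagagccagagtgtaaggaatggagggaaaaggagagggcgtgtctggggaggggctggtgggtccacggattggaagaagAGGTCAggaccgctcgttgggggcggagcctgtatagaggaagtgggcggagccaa
Nr1d1: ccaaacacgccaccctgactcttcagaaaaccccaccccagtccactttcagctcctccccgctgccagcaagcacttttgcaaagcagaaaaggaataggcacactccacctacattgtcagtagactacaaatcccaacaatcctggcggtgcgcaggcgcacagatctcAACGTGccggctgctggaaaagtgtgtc
CACGTT was held by 4.7% of all windows. In 1 of the 3 Clock windows AGGTCA was found on the other strand (chr5:76303606-76303631, minus strand, match in capitals).
Clock: ctttggcctcTGACCTgacagatgac
None of these motifs was found in the windows of Npas2 and Rora, and CACGTG (7.2% of all windows) and TTANGTAA (2.3%) were found in none of the 9 windows. A match is a run of letters and not a measured binding site.

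Total counts ranged from 2868808 to 4060568 in air and from 2515697 to 4528845 in smoke, and a floor of 3 counts was 0.66 to 1.14 CPM (a gene's count as a share of its library, scaled between libraries by TMM) across the 24 samples. That the tissue was skeletal muscle was checked with 7 muscle genes (Acta1, Ckm, Myh4, Myh1, Tnnt3, Pvalb and Mylpf). Their summed level was 133000 to 210000 CPM in air and 140000 to 179000 CPM in smoke. Another 28 tested markers covered these muscle genes, slow fibres, endothelium, fibroblasts, adipocytes, macrophages and satellite cells. Of the 28, 0 passed in edgeR (6 at an unadjusted p under 0.05), and 0 passed in DESeq2 and in limma voom. Over all 10159 tested genes 195 passed in edgeR and 1575 had an unadjusted p under 0.05. Of 5 blood genes 3 were lower under smoke, with summed levels of 483 to 1430 CPM in air and 366 to 877 CPM in smoke. Of 5 myelin genes 4 were higher, with summed levels of 104 to 212 CPM in air and 150 to 857 CPM in smoke. No listed blood or myelin gene was at 0 counts. In whole muscle, fewer cells of a type and less RNA per cell cannot be told apart.

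Of the 6 loop genes 5 passed the expression filter, and 1 of them, Nr1d2, differed between smoke and air. It was higher under smoke. Over all 10159 tested genes 1.92% were called in either direction, 0.728% higher and 1.19% lower, at a Benjamini-Hochberg adjusted p under 0.05 in edgeR's quasi-likelihood test. Log2 fold changes were positive for Nr1d1, Nr1d2 and Rora and negative for Arntl and Clock, and the median over all tested genes was 0.00663. The plot of levels by sample gives every value of the 6 genes.

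**Figure D1:**
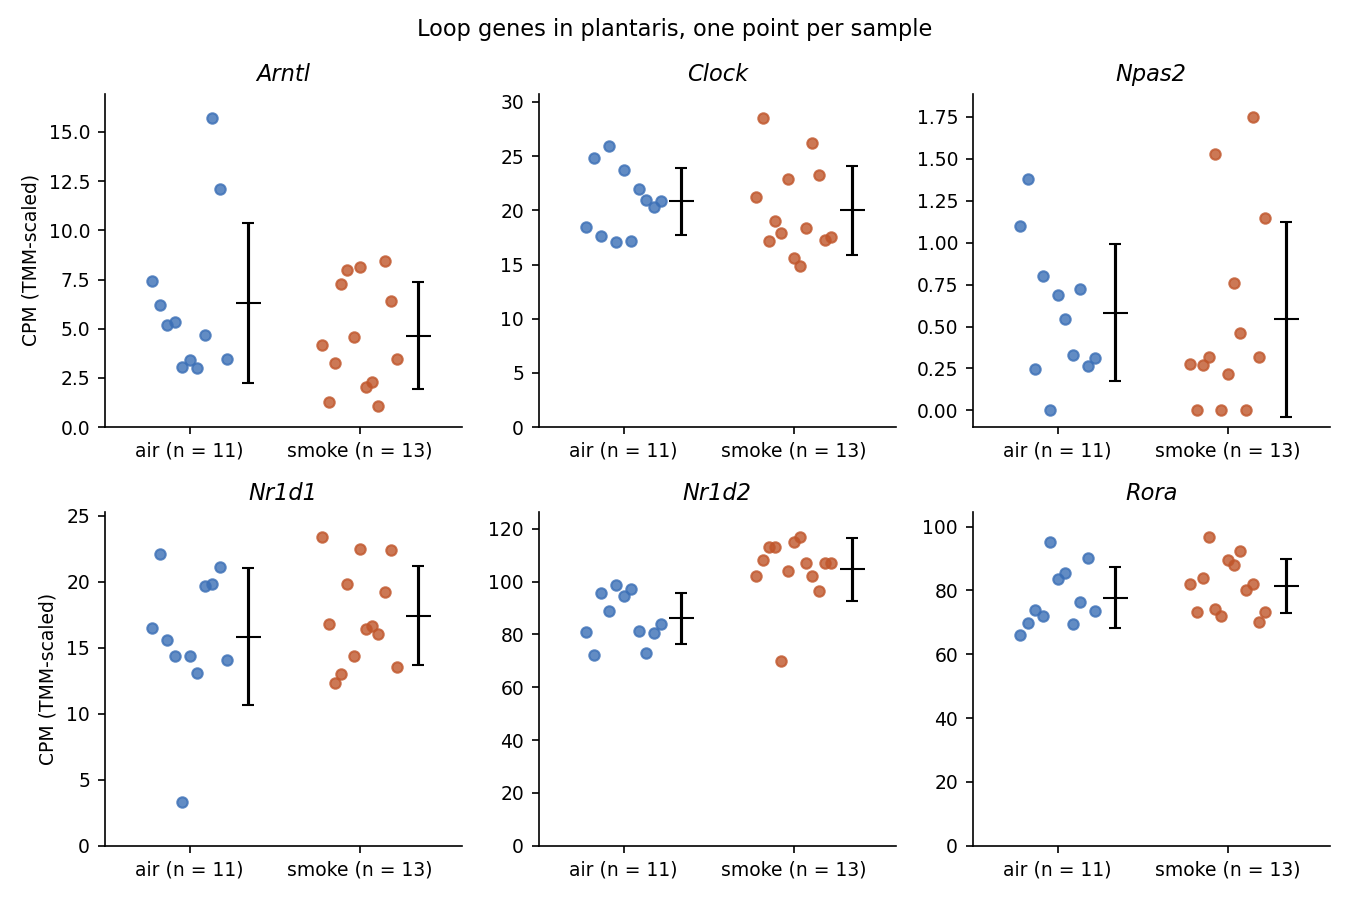
Level of each loop gene in CPM (vertical axes, TMM-scaled, starting at 0 except for Npas2) in 11 air samples (blue) and 13 smoke samples (orange). Each point is a sample and the black bars give mean ± SD. For Nr1d2, 11 of 13 smoke samples lie above the highest air sample, whereas the groups overlap widely for the other genes.

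Arntl encodes BMAL1, the subunit shared by both activator pairs (ENSMUSG00000055116, GRCm38 chromosome 7, 113207465 to 113314126, plus strand, overlapping Gm45355 on the opposite strand). Its level in air had a lowest value of 3.00, a median of 5.21 and a highest of 15.7 CPM. In smoke the lowest was 1.09, the median 4.18 and the highest 8.46 CPM. The groups overlapped, with 4 smoke samples below the lowest air sample and 0 above the highest one. Air samples averaged 6.33 ± 4.07 CPM (SD, n = 11) and smoke samples 4.65 ± 2.71 CPM (SD, n = 13). The log2 fold change was −0.47 (SE 0.30, 95% interval −1.07 to 0.13), and it did not pass (edgeR adjusted p = 0.48).

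The spread of Arntl was the widest of the tested loop genes. Its biological coefficient of variation was 45.5%, against 14.3% for the fit over all genes, and its counts ran from 10 to 65 per sample in air and from 3 to 37 in smoke. Air replicates 9 and 10, at 15.7 and 12.1 CPM, stood above the other air samples, the next of which was replicate 1 at 7.44 CPM. Without air replicate 9 the log2 fold change was −0.23, and without air replicate 10 it was −0.33. In smoke, replicates 10 and 2 were lowest, at 1.09 and 1.27 CPM.

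Clock encodes the partner of BMAL1 (ENSMUSG00000029238, chromosome 5, 76209868 to 76304792, minus strand, overlapping Gm43658 and Ube2n-ps1 on the same strand, which leaves its counts uncertain). In air it ran from 17.1 through a median of 20.9 to 25.9 CPM, and in smoke from 14.9 through 18.4 to 28.5 CPM. The smoke samples reached beyond the air range at both ends, 2 above it and 2 below it. Means were 20.8 ± 3.08 CPM (SD, n = 11) and 20.0 ± 4.14 CPM (SD, n = 13). Its log2 fold change of −0.06 (SE 0.10, 95% interval −0.27 to 0.15) did not pass (edgeR adjusted p = 0.842).

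Npas2, the paralog that can stand in for CLOCK (ENSMUSG00000026077, chromosome 1, 39193731 to 39363236, plus strand, overlapping Gm3617 on the same strand, which leaves its counts uncertain, and Gm20428 on the opposite one), was below the expression filter. It had 0 to 4 counts per sample in air and 0 to 6 in smoke, 22 and 24 in total, and 16 of 24 samples were under the floor of 3 counts. Air samples averaged 0.582 ± 0.409 CPM (SD, n = 11), smoke samples 0.542 ± 0.583 CPM (SD, n = 13), and the two-sided permutation p was 0.854. The ratio of smoke to air counts, each divided by the summed scaled library sizes of its group, was 0.946, with an exact 95% interval of 0.508 to 1.77 that covers counting error only. The counts do not tell ratios within that interval apart, and the interval leaves out the spread between samples.

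Nr1d2 encodes REV-ERBβ (ENSMUSG00000021775, chromosome 14, 18204054 to 18239127, minus strand, no annotated overlap). Levels in air ran from 72.1 through a median of 84.1 to 98.6 CPM. Under smoke they ran from 69.8 through 107 to 117 CPM. The smoke samples stood above every air sample in 11 of 13 cases, and the exceptions were replicate 11 at 96.5 CPM, within the air range, and replicate 5 at 69.8 CPM, below it. Air samples averaged 86.1 ± 9.55 CPM (SD, n = 11) and smoke samples 105 ± 11.9 CPM (SD, n = 13). The difference was 1.22-fold (95% interval 1.11 to 1.34), or 0.28 on the log2 scale (SE 0.069; adjusted p = 0.0216 in edgeR), and Nr1d2 ranked 100 of 10159 by p-value.

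The call of Nr1d2 held in 6 of 10 alternatives, among them DESeq2 (adjusted p = 0.00592) and limma voom (adjusted p = 0.0241). The others were edgeR fits with RLE scaling (adjusted p = 0.0228), upper-quartile scaling (0.0184), no expression filter (0.0384) and removal of the 10 most abundant genes (0.0231). In edgeR Nr1d2 did not pass with the blood marker score (0.21, adjusted p = 0.251) or the myelin marker score as a covariate (0.29, adjusted p = 0.0735). Nor did it pass with the replicate number as a block (0.27, adjusted p = 0.0912) or after thinning to the smallest library (0.27, adjusted p = 0.0606). The block fit held only replicate numbers found in both groups, so smoke replicates 12 and 13 were left out. Leaving out each sample in turn kept the adjusted p between 0.00291 (without smoke replicate 5) and 0.0447 (without air replicate 9). Blood and myelin markers moved with the group, as given above, and their part in the Nr1d2 difference cannot be told apart from smoke by these fits.

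Nr1d1 encodes REV-ERBα (ENSMUSG00000020889, chromosome 11, 98767932 to 98775333, minus strand). It ran from 3.32 through a median of 15.6 to 22.1 CPM in air and from 12.3 through 16.6 to 23.4 CPM in smoke. Air replicate 5 lay far below all other samples, with 13 counts, and the next lowest air sample was replicate 7 at 13.1 CPM. Apart from it the ranges were nearly the same. Means were 15.8 ± 5.18 CPM (SD, n = 11) and 17.4 ± 3.76 CPM (SD, n = 13). The log2 fold change of 0.15 (SE 0.16, 95% interval −0.18 to 0.47) did not pass (edgeR adjusted p = 0.729), and without air replicate 5 it was 0.03 (adjusted p = 0.946).

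The 3′ end of Nr1d1 overlaps by 1075 bases that of Thra, a thyroid hormone receptor gene on the opposite strand (chromosome 11, 98740638 to 98769006). Whether strand was used in counting is not given in the sources used here, so reads of these genes may be mixed. Thra averaged 75.3 ± 8.88 CPM (SD, n = 11) under air and 77.2 ± 6.44 CPM (SD, n = 13) under smoke, and its log2 fold change of 0.04 did not pass (SE 0.064; adjusted p = 0.843 in edgeR). In air replicate 5, where Nr1d1 was lowest, Thra was at 74.8 CPM, which is 0.002 from its air mean on the log2 scale. Thra was named after its values were seen.

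Rora encodes RORα, the activator that competes with the REV-ERBs (ENSMUSG00000032238, chromosome 9, 68653786 to 69388246, plus strand, overlapping Gm15511 on the opposite strand). In air it ran from 66.1 through a median of 73.7 to 95.3 CPM, and in smoke from 70.1 through 81.9 to 96.8 CPM. The groups overlapped over nearly their whole range. Means were 77.7 ± 9.43 CPM (SD, n = 11) and 81.3 ± 8.55 CPM (SD, n = 13), and the log2 fold change of 0.07 (SE 0.067, 95% interval −0.07 to 0.20) did not pass (edgeR adjusted p = 0.705). Its biological coefficient of variation of 10.6% was close to the 10.9% of Nr1d2 and below the 13.8% of Clock and the 24.3% of Nr1d1.

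The genes that turn with the loop were read from lists. Of 12 tested genes of the E-box class, which BMAL1 and CLOCK or their partners switch on, 3 were higher under smoke and 0 lower, and their median log2 fold change was 0.119. The 3 were Dbp, a transcription factor of clock output (log2 fold change 1.18, edgeR adjusted p = 4.86e-05), Bhlhe40, a repressor of the same E-boxes (0.44, adjusted p = 0.00105), and the clock repressor gene Per3 (0.45, adjusted p = 0.0172). With the blood or the myelin score as a covariate 2 were called, and Per3, at 0.42 and 0.37 on the log2 scale, was the one lost (adjusted p = 0.134 and 0.119 in edgeR). Dbp overlaps Sphk2 and Bhlhe40 overlaps 0610040F04Rik on the opposite strand, and Per3 overlaps Camta1 on the same strand, so their counts are uncertain. Ciart and Wee1 were below the filter, Ciart with 17 counts over the air and 48 over the smoke samples, Wee1 with 10 and 12.

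Besides the loop genes, the RORE class held 3 tested genes, 1 of them lower and 0 higher, with a median log2 fold change of −0.353. Nfil3, a repressor of D-boxes, fell from 24.8 ± 7.4 CPM (SD, n = 11) to 10.1 ± 2.5 CPM (SD, n = 13), a log2 difference of −1.31 (adjusted p = 1.31e-06 in edgeR), and 13 of 13 smoke samples lay under the mean of air. Cry1, a repressor of BMAL1 and CLOCK, was at −0.35 on the log2 scale, which did not pass (adjusted p = 0.205 in edgeR). It was named after its value was seen. Within the loop, Arntl at −0.47 and Clock at −0.06 carried the same sign as Nfil3 and did not pass. The paralogs Arntl2, of Arntl, and Rorb, of Rora, were below the filter, Arntl2 with 7 and 13 counts over the air and smoke samples and Rorb with 22 and 19.

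**Figure D2:**
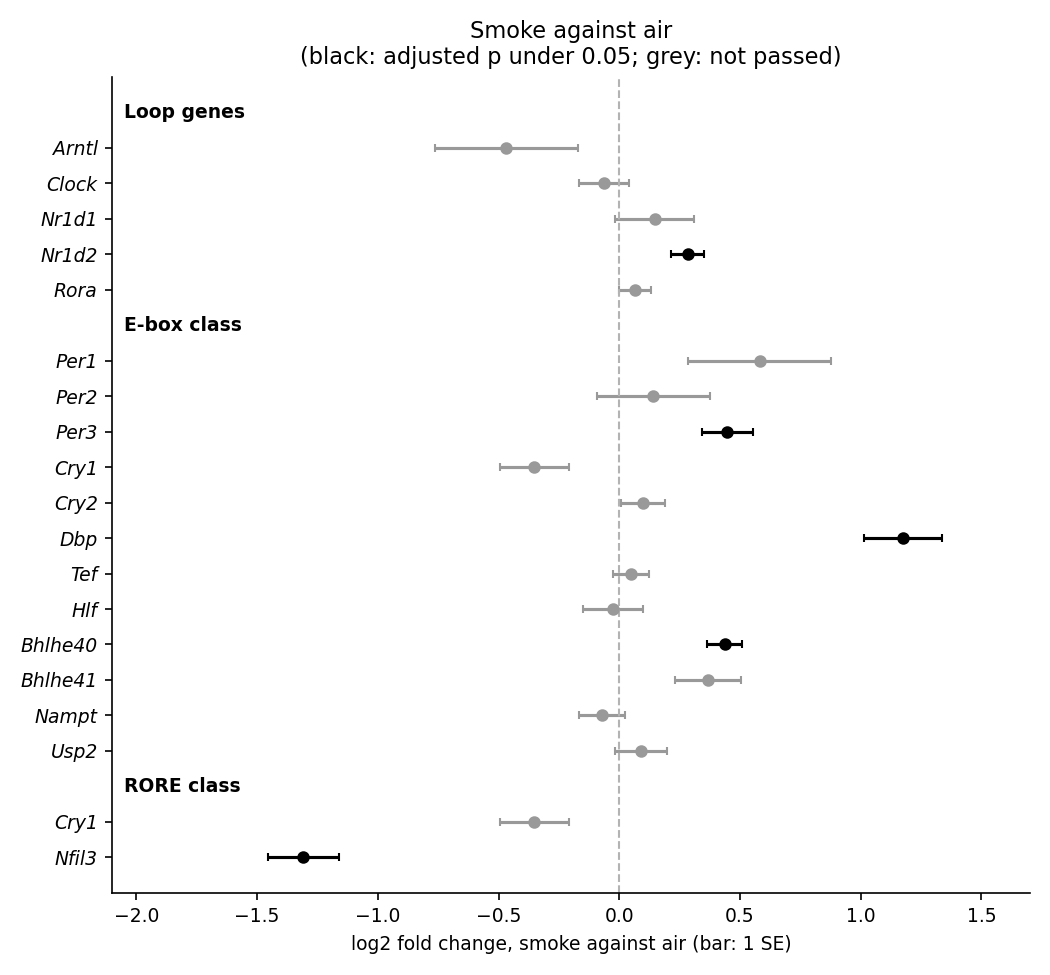
Log2 fold change of smoke against air (horizontal axis, bars 1 SE) for the 5 tested loop genes, the 12 tested genes of the E-box class, and Cry1 and Nfil3 of the RORE class (Cry1 is in both lists). Black points passed at an adjusted p under 0.05 (edgeR) and grey ones did not. Nr1d2 at 0.28 is the only black point among the loop genes, between Nfil3 at −1.31 and Dbp at 1.18.

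REV-ERBs repress by recruiting co-repressor complexes, and RORs activate through coactivators. Of 12 tested genes of this kind 1 was lower and 0 higher, with a median log2 fold change of −0.007. The list had 0 called genes (edgeR, 2 at an unadjusted p under 0.05 in each fit) without air replicate 10, with no expression filter, under the replicate block, and with the blood or the myelin score as a covariate. Over all tested genes such a p was held by 1241 of 10159 with the blood score and 2706 of 27644 with no filter. Ncor1, the main co-repressor partner of the REV-ERBs, had a log2 fold change of 0.09 (adjusted p = 0.588), and Hdac3, their deacetylase, had 0.09 (adjusted p = 0.746). These 2 genes were named after their values were seen.

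Of 16 tested kinases, phosphatases and ubiquitin ligases that act on clock proteins, 0 passed in edgeR, DESeq2 and limma voom. In edgeR 1 of the 16 had an unadjusted p under 0.05, against 1575 of all 10159 tested genes. Fbxw7, a ligase subunit reported to act on REV-ERBα, was at −0.19 on the log2 scale (adjusted p = 0.242 in edgeR). Among 9 muscle metabolic genes tied to the muscle clock, 2 were lower and 0 higher, with a median of −0.104. Pdk4, which encodes the kinase that shuts off pyruvate oxidation, fell by 1.14 on the log2 scale (edgeR adjusted p = 0.0165). Ldhb, a lactate dehydrogenase subunit, fell by 0.33 (adjusted p = 0.00864). Only Ldhb stayed called with the blood or the myelin score as a covariate, where Pdk4 was at −1.23 and −0.80 on the log2 scale (adjusted p = 0.0731 and 0.21 in edgeR), and after thinning, where Pdk4 dropped below the expression filter.

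Within a group, loop genes were compared across samples to see whether they varied together, over 15 pairs in each group and 30 relations in all. By Spearman's rho 3 pairs passed after Benjamini-Hochberg adjustment, all in air (n = 11), and 0 pairs passed by Pearson's r, where 5 had an unadjusted permutation p under 0.05. Samples with more Nr1d2 had less Nr1d1, with rho −0.90 (permutation p = 0.00042, adjusted p = 0.0126) and r −0.66 (permutation p = 0.00462, adjusted p = 0.139). They also had less Arntl, with rho −0.84 (permutation p = 0.00214, adjusted p = 0.0214) and r −0.73 (permutation p = 0.00997, adjusted p = 0.15). Arntl and Nr1d1 went together, with rho 0.85 (permutation p = 0.0017, adjusted p = 0.0214) and r 0.56 (permutation p = 0.0802, adjusted p = 0.274).

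The relations in air kept their sign when the 2 most distant samples by the first gene of the pair were left out, and no longer passed. For Arntl with Nr1d2 the r was −0.67 without air replicates 9 and 10, and for Arntl with Nr1d1 it was 0.57. For Nr1d1 with Nr1d2 it was −0.77 without air replicates 2 and 5. In smoke (n = 13) the same pairs had r of −0.29 for Nr1d1 with Nr1d2 (permutation p = 0.382, adjusted p = 0.521), −0.32 for Arntl with Nr1d2 (permutation p = 0.314, adjusted p = 0.471) and 0.34 for Arntl with Nr1d1 (permutation p = 0.255, adjusted p = 0.402). Their rho values were −0.27 (permutation p = 0.373), −0.21 (permutation p = 0.491) and 0.36 (permutation p = 0.224). The difference between air and smoke in these relations was not tested. Levels are shares of each library, so genes in it are not free of one another.

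**Figure D3:**
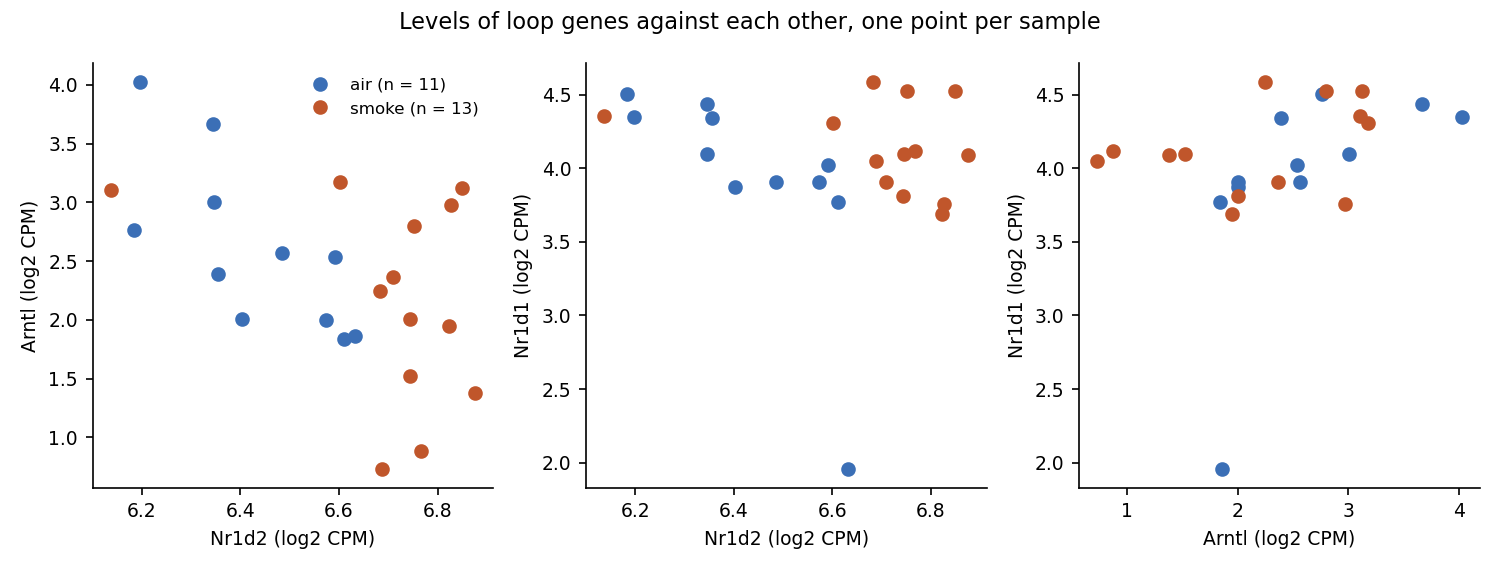
Log2 CPM (both axes) of Arntl against Nr1d2, Nr1d1 against Nr1d2 and Nr1d1 against Arntl, with air samples in blue (n = 11) and smoke samples in orange (n = 13). The air points slope downward in the first and second panels and upward in the third, and air replicate 5 is the lone point near log2 CPM 1.96 of Nr1d1.

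Ratios between loop genes were also read in each sample, as a description. For Arntl over Nr1d2 the log2 ratio ran from −4.77 to −2.18 in air (mean −3.83 ± 0.85, SD, n = 11) and from −5.95 to −3.04 in smoke (mean −4.53 ± 0.93, SD, n = 13). For Rora over Nr1d2, the activator against its competitor, it averaged −0.15 ± 0.16 under air (SD, n = 11) and −0.36 ± 0.19 under smoke (SD, n = 13). That of Nr1d1 to Nr1d2 was −2.51 ± 0.81 in air and −2.57 ± 0.40 in smoke. The groups overlapped in all of these ratios.

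Library measures were compared with the loop genes within groups in the same way, over 60 relations chosen after the data were seen (depth, the percentage of counts in the 10 most abundant genes, and scores of blood, myelin and slow fibre markers). 1 relation passed. In smoke (n = 13) Arntl was lower where the 10 most abundant genes took more of the counts, with r −0.85 (permutation p = 0.00022, adjusted p = 0.0132), rho −0.86 (permutation p = 0.00037, adjusted p = 0.0222) and r −0.72 without smoke replicates 2 and 10. In air (n = 11) the r was −0.48. That percentage ran from 36.9 to 45.8 in air and from 38.6 to 44.6 in smoke, and its part in the level of Arntl was not tested.

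As a further description, each gene's deviation from its group mean was followed over all 24 samples. Nr1d2 deviated most like the deubiquitinase gene Usp2 among the clock genes examined (r = 0.69), and like Dbp at r = 0.56. Arntl deviated against Per3 (r = −0.66), Per1 (r = −0.55) and Per2 (r = −0.54), the clock repressor genes. Nr1d1 deviated against Per1 and Per2 at r = −0.68 for each, which was −0.46 and −0.60 without air replicate 5. In that sample Nr1d1 deviated by −1.96 on the log2 scale while Per1 deviated by 2.05, Per2 by 1.33 and Dbp by 0.77. These r values share libraries and depth, and the clock genes in this paragraph were chosen after their values were seen.

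**Figure D4:**
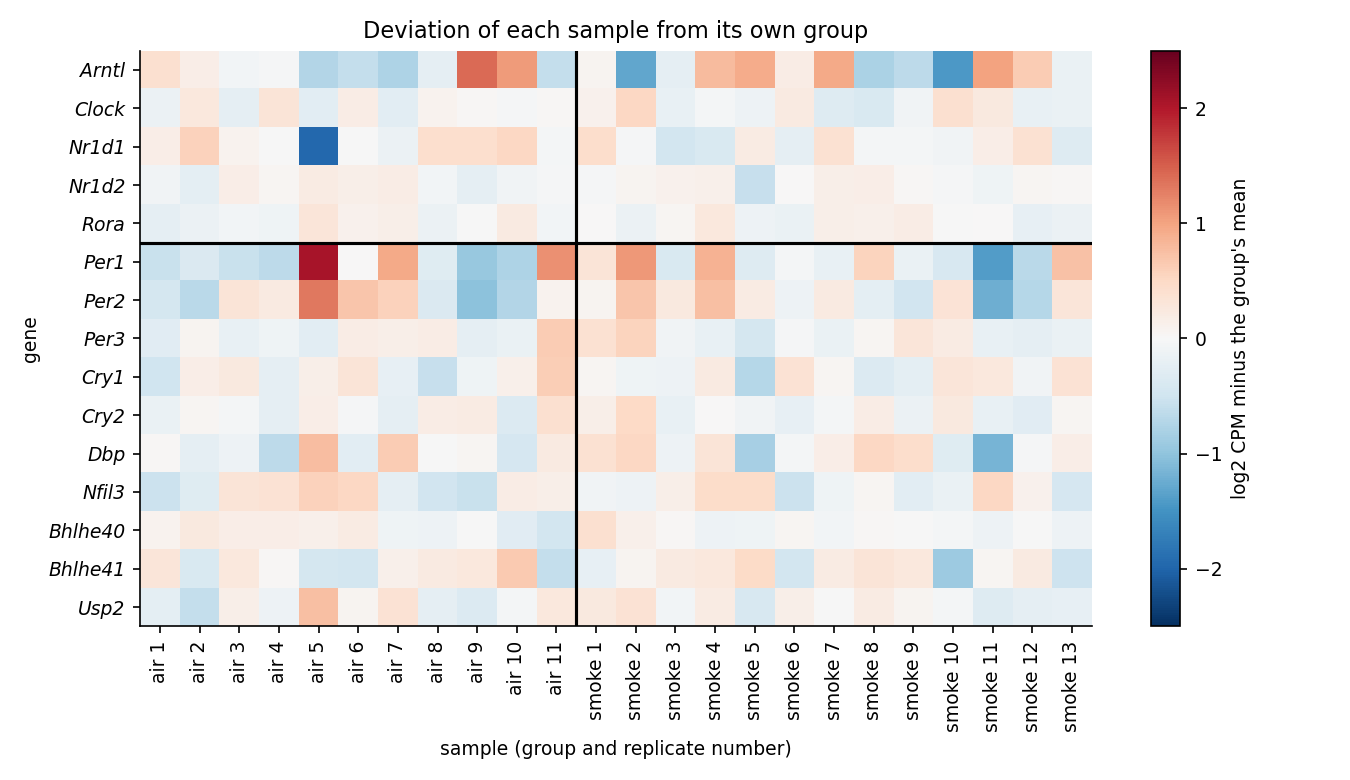
Deviation of each sample (columns, group and replicate number) from the mean of its own group in log2 CPM (colour, red above and blue below) for 5 loop genes above the horizontal line and 10 other clock genes below it. Arntl shows the strongest colours of the loop genes across samples, apart from Nr1d1 in air replicate 5 at −1.96.

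Among all tested genes, those whose deviations were most like a loop gene's were mostly not clock genes. For Arntl the highest r values over 24 samples were those of Ccnq (0.83), Twf2 (0.81) and Spcs3 (0.79), and the lowest those of Pde4d (−0.76) and Pcolce2 (−0.75). For Clock they were Ulk4 (0.82), Adgrb3 (0.81) and Gm11927 (0.81), against Tigar (−0.77) and Trappc10 (−0.76). Nr1d1 was most like Zfp329 (0.74), Gm42447 (0.70) and Ccdc71l (0.70) and least like Tra2a (−0.76) and Ddit4 (−0.70). Nr1d2 was most like Zmynd19 (0.82), Ttc19 (0.76) and Kif2a (0.72) and least like Tmem44 (−0.70) and Dap (−0.68). Rora was most like Mylk4 (0.75), Sub1 (0.72) and Rabep1 (0.71) and least like Nvl (−0.75) and Hsd17b12 (−0.73). Each is the extreme of 10158 genes, so values of this size carry no weight alone.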

How the data were processed

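Per the labels' protocols, sequencing was on an Illumina HiSeq, from QuantSeq 3′ FWD libraries (Lexogen). The authors deposited raw read counts per Ensembl gene ID. STAR, DESeq2 and the build mm9 are named in the submitters' processing notes, with no versions or roles. The annotation, the counting tool, strand use and the handling of PCR copies are not given in the sources used here. The exact interval of the Npas2 ratio and the floors of 3 counts cover counting error only, whereas intervals from edgeR include the spread between samples. Per the file headers all libraries shared lane 6, and smoke samples held sample sheet numbers 229 to 241 and air samples 242 to 252, so sheet position and group cannot be told apart.

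Symbols and coordinates came from GENCODE M21 (GRCm38), matched by ID for 99.1% of IDs, and promoter windows from RefSeq (GRCm38.p6). Groups and replicate numbers came from sample titles. Counts were fitted in edgeR 4.0.16 (R 4.3.3) on all 24 samples: filterByExpr with a minimum count of 10, TMM scaling, and the quasi-likelihood F-test with Benjamini-Hochberg adjustment over all tested genes. SE is the absolute log2 fold change divided by the root of F. Permutation tests were two-sided with 100000 resamples, on CPM for Npas2 and on log2 CPM (prior count 2) for correlations. The procedure was tested on simulated data. Alternatives used limma 3.58.1 (voom) and DESeq2 1.42.0, other scalings, filters, thinning, covariates, a replicate block and leaving out samples. The block fit was limited to replicate numbers found in both groups. No samples were merged, since chi-square divided by the number of genes was 2.33 to 16 for the 133 same-group pairs.

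Genes, lists and tests were chosen with earlier results of these data known. Named genes were the 6 loop genes, every called gene of a list (or the 2 with the smallest p-values where none was called), and for each tested loop gene the 3 highest and 2 lowest genes by r of deviations. Cry1, Ncor1, Hdac3, Thra, Per1, Per2 and Usp2 fall outside this rule and were named after their values were seen, as were Ciart, Wee1, Arntl2 and Rorb, which were below the filter. Results for some genes that the rule names are not reported here.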

Additional observations from a re-analysis of the deposited data

How the results depend on the processing

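Against 195 genes called (74 higher, 121 lower), DESeq2 gave 323, the blood marker score as a covariate 56 and the myelin marker score 87. With RLE or upper-quartile scaling, voom, no filter, removal of the 10 most abundant genes, thinning and the replicate block the count was 139 to 205, and without 1 sample it was 141 to 254. Of the loop genes 1 was called, and 0 were called after thinning, under the replicate block and with the blood or the myelin score (1, 1, 1 and 2 at an unadjusted p under 0.05 in edgeR). Over all tested genes such a p was held by 1365 of 9284, 1570 of 10074, 1241 of 10159 and 1331 of 10159 in these fits. Nr1d2 was then at 0.27 after thinning, 0.27 under the replicate block, 0.21 with the blood score and 0.29 with the myelin score. Replicate numbers do not pair the samples: deviations of same-numbered samples correlated at a mean r of −0.0059 over 11 pairs, 4 of them over 0.1, against 0.0011 over 132 other pairs. All 5 tested loop genes kept their sign under each of 10 alternatives and in each of 24 fits without 1 sample, but not their size. Nr1d1 was at 0.25 in limma voom and Clock at −0.13 after thinning, neither of them called. With the myelin score Arntl went from −0.47 to −0.19, Clock from −0.06 to −0.23 and Rora from 0.07 to 0.16, and with the blood score Clock went to −0.01, Nr1d1 from 0.15 to 0.05 and Rora to 0.02, none of them called. Without 1 sample Nr1d2 ranged from 0.26 to 0.32 and stayed called, Arntl ranged from −0.58 to −0.23, Clock from −0.11 to −0.03, Nr1d1 from 0.03 to 0.20 and Rora from 0.04 to 0.10.

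The co-repressor and coactivator list went from 1 called gene to 0 with no expression filter, under the replicate block, and with the blood or the myelin score (2 at an unadjusted p under 0.05 in each), and ranged from 0 to 1 without 1 sample. The E-box class went from 3 to 2 with either score. The list of muscle metabolic genes went from 2 to 1 after thinning and with either score. The Npas2 difference of −0.039 CPM ranged from −0.14 to 0.041 without 1 sample, and turned positive without air replicate 1 (0.013), air replicate 2 (0.041) or smoke replicates 2, 6 or 10 (0.0059 each). The 3 pairs passing by rho went to 0 without the 2 farthest samples, where rho was 0.82 for Arntl with Nr1d1, −0.78 for Arntl with Nr1d2 and −0.82 for Nr1d1 with Nr1d2 (adjusted permutation p = 0.104 for each), and stayed at 3 with a prior count of 0.5 or RLE scaling. The cause of these shifts was not tested, beyond the lower counts after thinning and the fewer samples in the reduced sets. Depth limits Npas2 most, with 16 of 24 samples under 3 counts.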
